A study of Mus musculus with 12 samples.

Results

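B2m encodes beta-2 microglobulin, the light chain of MHC class I molecules. Its RNA was measured here by 1 probe, the only one that the files name for this gene, out of 33692 probes tested. Only 15 probes on the array carry a RefSeq accession. The others were not paired with genes here, so whether another of them reads B2m is not known. The B2m probe carries the RefSeq accession NM_009735.3, which RefSeq (mouse assembly GRCm38.p6) pairs with B2m on chromosome 2, from base 122147687 to 122153082. This probe was printed as 20 spots on each of 12 1-colour arrays. RNA came from RAW264.7 cells, a single mouse macrophage line, so the values describe that line and no primary macrophage. There were 3 arrays each for DMSO (24 h), LPS (6 h), AdipoAI (24 h) and AdipoAI+LPS. The cells of the last group had AdipoAI for 24 h and were then given LPS at 100 ng/ml for 6 h. LPS, the lipopolysaccharide of bacterial outer membranes, is sensed by Toll-like receptor 4, AdipoAI is a small-molecule agonist of adiponectin receptors, and DMSO is the solvent. The LPS dose stands in a protocol that the labels repeat for every array, the LPS group included, and the dose of AdipoAI is not given in the sources used here. Whether the LPS cells had solvent first is not stated either, and such a difference in handling cannot be told apart from the treatment in comparisons with them. The stated times also differ between groups with and without LPS, and a difference in time cannot be told apart from LPS.

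Class I molecules carry peptides from inside the cell to its surface, where CD8+ T cells read them. The heavy chain folds with beta-2 microglobulin and a peptide in the endoplasmic reticulum, and without the light chain little class I reaches the surface. Nearly all cells make beta-2 microglobulin. Interferons raise its transcription, and LPS makes macrophages release type I interferon, which acts back on the same cells.

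The start of the gene is printed because it holds matches to motifs known for factors of the interferon and LPS pathways. The window runs from 250 bases before to 50 bases after the RefSeq start of B2m, chr2:122147437-122147736 of GRCm38.p6, plus strand. Capitals mark motif matches.
B2m: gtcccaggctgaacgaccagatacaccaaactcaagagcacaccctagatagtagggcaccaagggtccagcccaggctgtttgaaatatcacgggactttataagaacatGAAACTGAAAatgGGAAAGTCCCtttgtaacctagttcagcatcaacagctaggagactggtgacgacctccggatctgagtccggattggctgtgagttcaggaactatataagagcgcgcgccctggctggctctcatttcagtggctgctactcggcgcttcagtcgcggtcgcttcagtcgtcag
The first match is to the interferon-stimulated response element, searched on both strands as GAAA, any pair of bases and GAAA again, and begins 139 bases before the start. The second is to the NF-kappaB consensus, on the minus strand, and begins 126 bases before the start on the plus strand. They do not overlap. Of 32851 RefSeq windows of the same length, 3.44% held the first motif, 8.46% the second and 0.247% both. The AP-1 motif, searched as TGANTCA, was not in the B2m window and was in 7.81% of all windows. The arrays measured RNA and not the binding of any factor, so a match is a description of the letters alone.

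B2m was higher with LPS in cells with and without AdipoAI, and both groups without LPS lay below both groups with it. The rise was 1.43-fold over DMSO and 1.54-fold over AdipoAI. AdipoAI itself gave no difference that passed the test, neither without LPS nor before it.

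Levels are log2 intensities after quantile normalization, which gives all arrays the same distribution of values. In DMSO the 3 arrays read 15.21, 15.37 and 15.46, a mean of 15.35 ± 0.13 (SD, n = 3). In LPS they read 16.00, 15.66 and 15.92, a mean of 15.86 ± 0.18 (SD, n = 3). The lowest LPS array, replicate 2, was 0.20 above the highest DMSO array, so these groups did not overlap. In AdipoAI the arrays read 15.15, 15.17 and 15.18, a mean of 15.17 ± 0.017 (SD, n = 3). In AdipoAI+LPS they read 15.80, 15.77 and 15.79, a mean of 15.79 ± 0.016 (SD, n = 3). The AdipoAI+LPS arrays lay inside the range of LPS, whereas the AdipoAI arrays lay just under all DMSO arrays, with a gap of 0.03. As geometric mean intensity, DMSO stood at 41691 and LPS at 59416, against 36780 for AdipoAI and 56536 for AdipoAI+LPS.

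**Figure D1:**
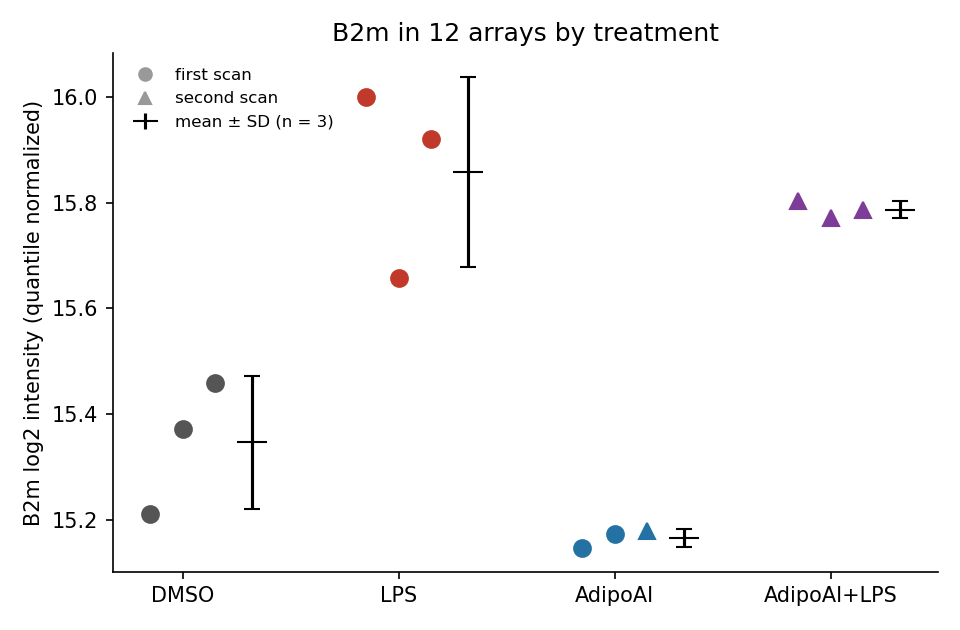
Quantile-normalized log2 intensity of B2m (vertical axis) in each of 12 arrays, by treatment (horizontal axis), with circles for the first scan, triangles for the second and bars for the mean ± SD of 3 arrays. The 6 arrays with LPS sit between 15.66 and 16.00, above the 6 without it, which sit between 15.15 and 15.46.

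The order of the group levels was AdipoAI, DMSO, AdipoAI+LPS and LPS, from low to high. Between neighbours in this order only the step from DMSO to AdipoAI+LPS passed the test. Those groups lay in different scans, and by limma the step did not pass without scaling (adjusted p = 0.22) or with the scan as a block (0.19). All 4 groups were fitted together with limma, and p was adjusted by the Benjamini-Hochberg method over the 33692 probes. The labels do not say that arrays of a group came from separate cultures, so p measures the spread between these samples, which may be technical. In RNA from whole cultures, a rise in a part of the cells and a smaller rise in all of them cannot be told apart.

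In LPS against DMSO, the comparison that gives the response of otherwise untreated cells, B2m was higher by 0.51 on the log2 scale (standard error 0.11, 95% interval 0.26 to 0.76, adjusted p = 0.0044 by limma). LPS moved a large part of the array: 16.2% of probes were called higher and 22.3% lower at an adjusted p under 0.05, and 19.1% had a difference at least as high as that of B2m. Its rise was therefore clear of the spread between arrays and moderate in size. The methods set a limit of 1.5 in size on the log2 scale, with an unadjusted p under 0.05, and 4.95% of probes were called higher by that rule. B2m, at 34.1% of the limit, was not among them. Both groups lay in the same scan, so the scan does not enter this difference. All 20 spot positions were higher in LPS, by 0.47 to 0.56, but spots share the RNA of their array and are not replicates. The 20 positions also went one way in AdipoAI+LPS against LPS, at -0.13 to -0.0063, although those groups overlapped.

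In AdipoAI+LPS against AdipoAI, which gives the response to LPS of cells that had AdipoAI, B2m was higher by 0.62 (standard error 0.11, 95% interval 0.37 to 0.87, adjusted p = 0.0017 by limma), where 13.3% of probes were called higher and 19% lower. The groups did not overlap, with a gap of 0.59 on the log2 scale after quantile normalization, 0.52 with 75th percentile scaling and 0.30 as deposited. Only AdipoAI replicate 3 shared a scan with the AdipoAI+LPS arrays. Within that scan the difference was 0.61, and the adjusted p of 0.14 by limma says little, since it sets 3 arrays against 1 that is assumed to vary like the others. With the scan as a block it was 0.61 with an adjusted p of 0.030 by limma. That estimate rests on the same 3 arrays against 1, so it is no separate check.

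The response to LPS was not shown to depend on AdipoAI. The interaction, the effect of AdipoAI with LPS less its effect without LPS, was 0.11 (standard error 0.16, 95% interval -0.25 to 0.47, adjusted p = 0.85 by limma), and 3.08% of probes were called for it. The interval is wide beside the response of B2m to LPS itself. After quantile normalization the response with AdipoAI was 121% of that without it on the log2 scale. As deposited it was the smaller of the pair, at 0.47 with AdipoAI and 0.51 without, so which was larger turned on the scaling. Without scaling the interaction was -0.042 (adjusted p = 0.98), while the median over all probes was -0.073. All AdipoAI+LPS arrays lay in the second scan, with AdipoAI replicate 3 as the only other array, so the scan enters the interaction. With the scan as a block it was 0.097, with a standard error of 0.20.

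AdipoAI alone was studied against DMSO in resting cells. B2m read 0.18 lower on the log2 scale in AdipoAI (difference -0.18, standard error 0.11, 95% interval -0.43 to 0.07, adjusted p = 0.32 by limma), where 6.92% of probes were called higher and 7.53% lower. Whether the groups overlapped turned on the scaling. After quantile normalization the gap was 0.03 beside an SD of 0.13 between DMSO arrays, as deposited it was 0.15 beside an SD of 0.040, and with 75th percentile scaling the groups overlapped. The interval runs from a fold of 0.740 to 1.05, so these arrays do not show that AdipoAI leaves B2m at its level. All 20 spot positions were lower in AdipoAI, by 0.15 to 0.24, but spots share the RNA of their array and are not replicates.

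In AdipoAI+LPS against LPS, which asks whether AdipoAI before LPS changes what LPS does, the difference of B2m was -0.07 (standard error 0.11, 95% interval -0.32 to 0.18, adjusted p = 0.71 by limma), where 8.2% of probes were called higher and 8.9% lower. In fold terms the interval runs from 0.799 to 1.13. After quantile normalization LPS replicate 2 lay below all AdipoAI+LPS arrays and the other LPS arrays above them, whereas as deposited 2 of the 3 AdipoAI+LPS arrays lay below every LPS array. These groups lay in different scans, and with the scan as a block the difference was -0.09 (adjusted p = 0.90). Without scaling between arrays it was -0.29 (adjusted p = 0.20), while the median over all probes tested then also moved, to -0.18.

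The cells with both treatments were above DMSO by 0.44 (standard error 0.11, 95% interval 0.19 to 0.69, adjusted p = 0.0088 by limma), a fold of 1.36, where 20.7% of probes were called higher. With the scan as a block the difference was 0.42, but its standard error rose to 0.21 and the adjusted p to 0.19, since the groups lay in different scans and AdipoAI alone had arrays in both. Without scaling it was 0.23 with an adjusted p of 0.22, and the median over all probes was then -0.23, so that B2m stood 0.46 above that median. LPS was above AdipoAI by 0.69 (standard error 0.11, adjusted p = 7.0e-04 by limma), the largest difference of B2m between any pair of the 4 groups, where 16.3% of probes were called higher.

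**Figure D2:**
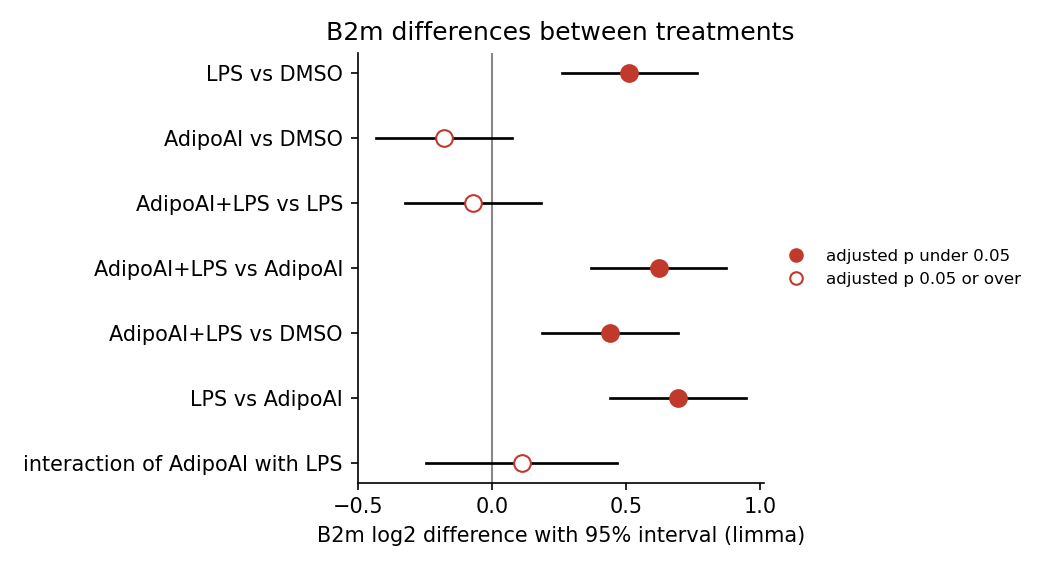
Log2 difference of B2m, first group minus second, with its 95% interval from limma (horizontal axis) for the 6 pairs of groups and the interaction (vertical axis), filled where the adjusted p is under 0.05. The 4 comparisons of a group with LPS against one without it are filled, between 0.44 and 0.69, and the intervals of the other 3 hold 0.

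Over all 12 arrays, the effects of each agent were also tested by an exact permutation test, two-sided, with the labels of one agent permuted within the arrays that share the other. The effect of LPS on B2m, averaged over cells with and without AdipoAI, was 0.57 on the log2 scale with an exact permutation p of 0.005, the smallest that the 400 arrangements can give. The effect of AdipoAI, averaged over cells with and without LPS, was -0.13 with p = 0.07 by the same exact test. Adjusted over these 2 tests, p was 0.01 for LPS and 0.07 for AdipoAI in the exact permutation test. Without scaling between arrays the AdipoAI effect was -0.26 with an exact p of 0.01. The median over all probes was then also negative, at -0.11 in AdipoAI against DMSO and -0.18 in AdipoAI+LPS against LPS. With 75th percentile scaling the AdipoAI effect on B2m was -0.14 with an exact p of 0.235. After quantile normalization without LPS replicate 2 it was -0.18 with an exact p of 0.005. The call of an AdipoAI effect therefore turned on the scaling and on that array. The permutations took no account of the scan. Among arrays with LPS, AdipoAI cannot be told apart from the scan. Among arrays with AdipoAI, only AdipoAI replicate 3 shared a scan with those given LPS.

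The 20 spots show how precisely each array read the gene. All 240 spots were well above background and none was saturated. The scanner software flagged 9 as outliers, which left 231, or at least 17 per array. On an array the spots used had an SD between 0.022 and 0.048 on the log2 scale, a coefficient of variation of 1.51% to 3.33%, so the standard error of an array mean was at most 0.011. The pooled SD between arrays of a group was 0.11, far above that error, so the number of arrays limits the precision.

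Scaling moved the array means by more than the spots did. As deposited, before any scaling between arrays, the B2m mean for DMSO was 15.42 ± 0.040 and for LPS 15.93 ± 0.11 (SD, n = 3 each). For AdipoAI it was 15.17 ± 0.060 and for AdipoAI+LPS 15.64 ± 0.16 (SD, n = 3 each). Quantile normalization shifted B2m on an array by up to 0.25. It widened the spread in DMSO and LPS and narrowed it in AdipoAI and AdipoAI+LPS. The AdipoAI+LPS arrays thus lay close together only after normalization, since as deposited replicate 1 read 15.83 and the others 15.56 and 15.54. The order of the 4 groups was the same as deposited and after normalization.

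**Figure D3:**
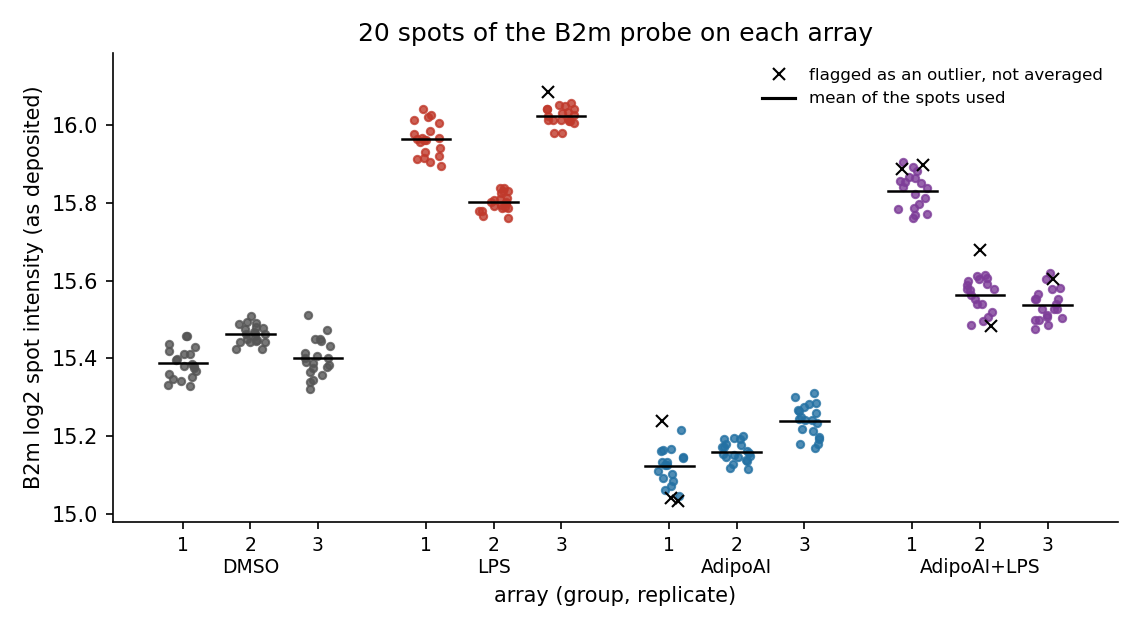
Log2 intensity as deposited (vertical axis) of each of the 20 B2m spots on the 12 arrays (horizontal axis), with crosses for the 9 spots flagged as outliers and lines for the mean of the spots used. Spots of an array lie close together, with an SD of at most 0.048, and the arrays of AdipoAI+LPS lie apart, at 15.83, 15.56 and 15.54.

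B2m was also set beside the other probes that carry a RefSeq accession, which all have 20 spots on each array. Of 14 such genes, Ldhal6b was well above background on no array and 13 were tested. Several of them serve as reference genes in PCR. Changes are compared here, never levels. In LPS against DMSO 3 of the 13 rose, 4 fell and 6 did not pass the test, with a median of -0.02, and only 2 had a higher change than B2m. In AdipoAI+LPS against AdipoAI 1 rose, 1 fell and 11 did not pass, with a median of -0.04, and 1 had a higher change than B2m. In AdipoAI against DMSO 2 rose and 2 fell, and in AdipoAI+LPS against LPS 1 rose and 3 fell.

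Likeness to B2m was measured as the mean absolute difference of the log2 changes from DMSO in LPS, AdipoAI and AdipoAI+LPS, over 12 arrays. The nearest gene was Actb, cytoplasmic beta-actin, at 0.15. Actb rose by 0.51 with LPS (standard error 0.14, adjusted p = 0.012 by limma). Without LPS replicate 3 its difference was 0.41 with an adjusted p of 0.057. In AdipoAI+LPS against AdipoAI, where B2m rose by 0.62, Actb was higher by 0.17 and did not pass (adjusted p = 0.39 by limma). Its values with AdipoAI, 0.12 (adjusted p = 0.62), and with AdipoAI+LPS, 0.29 (adjusted p = 0.11), did not pass the test, although the latter passed with trended and robust variances (adjusted p = 0.047). Ppia, cyclophilin A, followed at 0.38, and Hsp90ab1, a constitutive heat shock protein of the HSP90 family, at 0.39. Neither passed the test in any of the 3 comparisons with DMSO, with changes between -0.10 and 0.00. They were thus near B2m only in being less far than the other genes. The farthest was Gusb, lysosomal beta-glucuronidase, at 0.74, which fell by 0.91 with LPS (adjusted p = 2.9e-05 by limma). With AdipoAI it was higher by 0.39 (adjusted p = 0.026 by limma), a call that was lost in 8 of 26 alternatives, at 0.32 to 0.39. These were no scaling (adjusted p = 0.21), the scan as a block (0.074), the replicate block (0.059), the first scan alone (0.086), only the arrays compared (0.082), and the fits without DMSO replicate 2 (0.094), DMSO replicate 3 (0.078) or AdipoAI replicate 3 (0.074). Among all probes tested, 254 (0.754%) were within 0.1 of B2m by this measure, none of them with an accession.

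**Figure D4:**
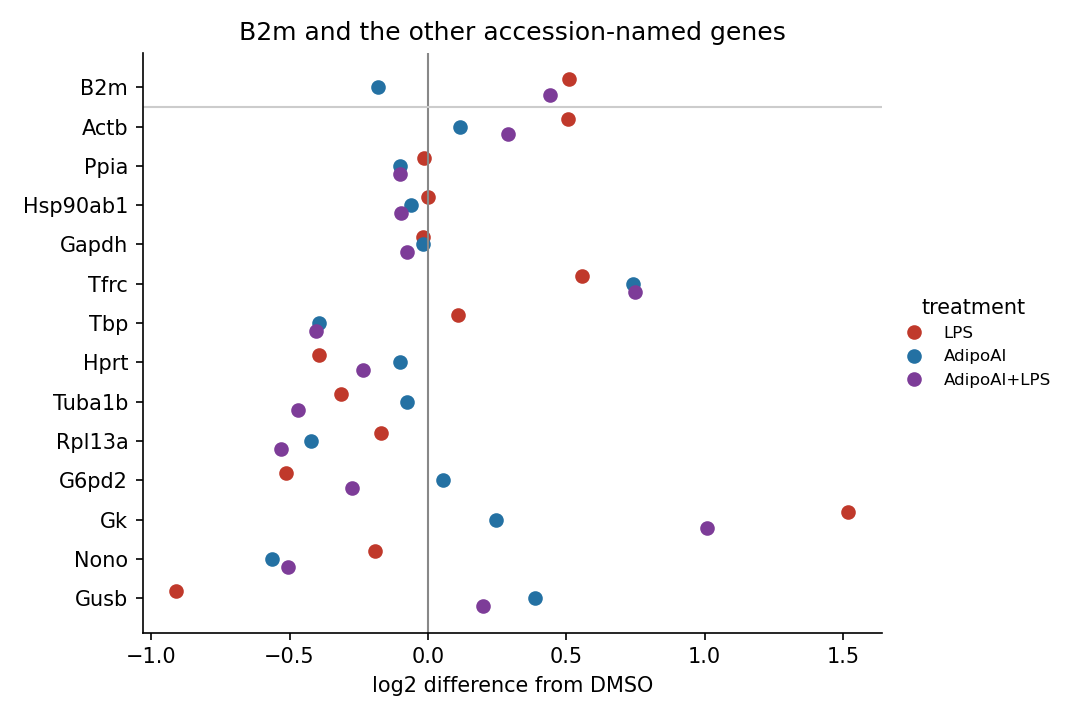
Log2 difference from DMSO (horizontal axis) in LPS, AdipoAI and AdipoAI+LPS for B2m and the 13 other accession-named genes tested (vertical axis, ordered by likeness to B2m). B2m has 0.51, -0.18 and 0.44 in turn, and the nearest gene, Actb, has 0.51, 0.12 and 0.29.

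Of the 13 other genes, 11 had a promoter window in the RefSeq table, and 0 of these held any of the 3 motifs. With shares of 3.44%, 8.46% and 7.81% over all windows, a count of 0 among 11 genes is near the background and says nothing particular of B2m. The other proteins of class I presentation were looked for as well. Of 35 genes listed for class I and class II presentation, its regulators and the response to LPS, only B2m was named by the files, and of 18 cell type markers none was. The heavy chains, the peptide transporter and the immunoproteasome were therefore not analysed here, and the macrophage label of the cells was not checked against marker genes.

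Each array had 29298 to 32969 probes that the scanner software called well above background. The first scan held 8 arrays, all of DMSO and LPS and AdipoAI replicates 1 and 2, and the second held 4, AdipoAI replicate 3 and all of AdipoAI+LPS. After quantile normalization AdipoAI replicate 3 read 15.18, next to 15.15 and 15.17 for the AdipoAI arrays of the first scan. As deposited it read 15.24, above their 15.12 and 15.16, and it is 1 array only. Of all probes called, the share called higher moved by over 10 percentage points without scaling in 5 of the 7 comparisons. Without scaling the share was 37.3%, against 47.9% with it, in AdipoAI against DMSO, 26.6% against 47.9% in AdipoAI+LPS against LPS, 28.0% against 41.2% in AdipoAI+LPS against AdipoAI, 27.4% against 44.1% in AdipoAI+LPS against DMSO and 35.8% against 49.6% for the interaction. It moved less in LPS against DMSO, 35.0% against 42.1%, and in LPS against AdipoAI, 42.8% against 44.3%. Blocked by scan, it was 58.4% in AdipoAI+LPS against LPS.

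**Figure D5:**
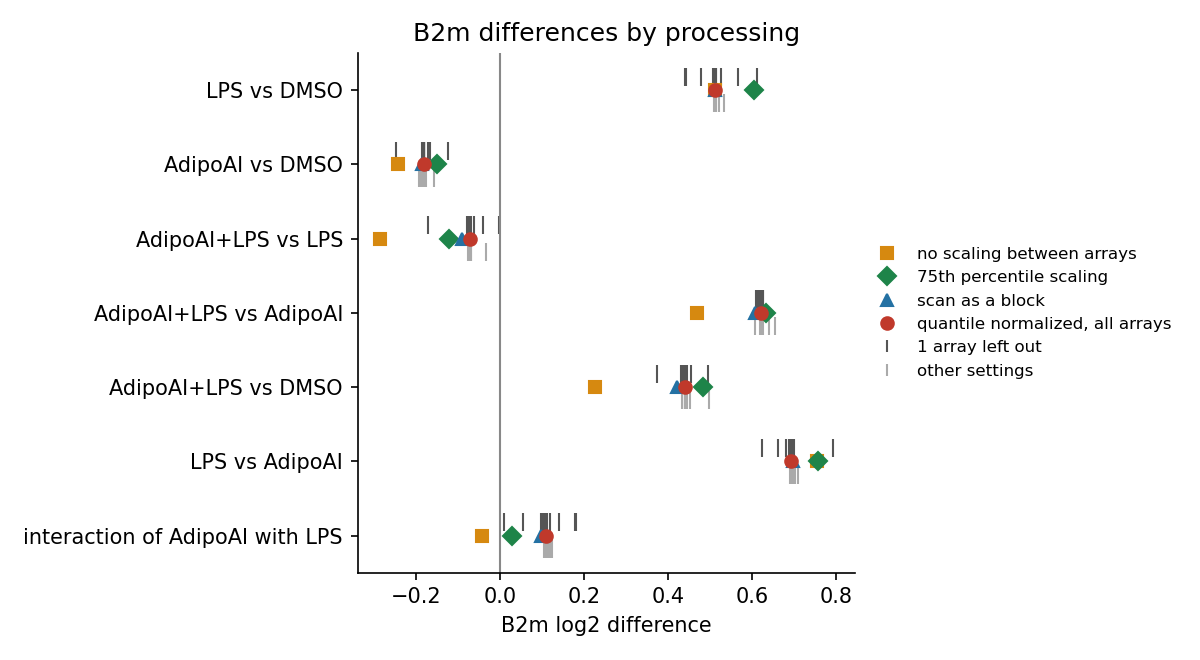
Log2 difference of B2m, first group minus second (horizontal axis), for the 6 pairs of groups and the interaction (vertical axis) under each processing setting, with grey ticks for settings and arrays left out. The 4 differences between groups with and without LPS stayed between 0.23 and 0.79, and that of AdipoAI+LPS against LPS reached -0.29 without scaling.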

How the data were processed

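Per the file headers, the authors' scanner files hold a background-subtracted intensity per spot from Agilent Feature Extraction 11.0.1.1, not scaled between arrays. A table of the whole series, also deposited, gives log2 values that the authors quantile normalized, per the methods. Control spots and negative probes were left out, which left 60915 probes. Spots flagged as outliers were then left out, which removed 221 of these, and spots of a probe were averaged on the log2 scale. The 60694 remaining probes were quantile normalized. Of these, 33692 that the scanner software called well above its background on 3 or more arrays were fitted with limma over 4 groups. The fit was also run on simulated data, with changes larger than any difference of B2m and no effect of the scan. That run therefore does not show how well differences of the size seen in B2m are found. The named genes were B2m, the 3 accession-named genes nearest to it and the 1 farthest. B2m and the lists were chosen with earlier results of these data known. Alternatives changed the scaling, the background correction (normexp, offset 50), the filter, the variance model, the spots, the arrays and the blocks. R 4.3.3 with limma 3.58.1 was used for the fits, and Python 3.11.15 with matplotlib 3.10.9 for the figures.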

Additional observations from a re-analysis of the deposited data

How the results depend on the processing

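B2m kept its direction and its side of the threshold under each alternative run in LPS against DMSO (0.44 to 0.61, adjusted p 4.1e-04 to 0.024 by limma), LPS against AdipoAI, AdipoAI against DMSO and AdipoAI+LPS against LPS. AdipoAI+LPS against DMSO no longer passed without scaling (0.23) or with the scan as a block (0.42). AdipoAI+LPS against AdipoAI was 0.61 within the second scan but did not pass there, in a fit that sets 3 arrays against 1. Without scaling the interaction was -0.042 and the AdipoAI effect over both strata -0.26. With each array left out in turn, LPS against DMSO was 0.44 to 0.61, AdipoAI against DMSO -0.25 to -0.13, AdipoAI+LPS against LPS -0.17 to -0.00, AdipoAI+LPS against AdipoAI 0.61 to 0.63, AdipoAI+LPS against DMSO 0.37 to 0.50, LPS against AdipoAI 0.62 to 0.79 and the interaction 0.01 to 0.18. The LPS effect over both strata was 0.53 to 0.62 and the AdipoAI effect -0.18 to -0.092, the former without LPS replicate 2. Replicate numbers were not shown to pair the arrays. Of 18 same-numbered pairs, 1 had a correlation of deviations over 0.1 and 5 had one under -0.1. Pairs with different numbers were not compared, so these values cannot decide whether arrays were paired. The replicate block changed no call of B2m, with 0.51 (adjusted p = 0.011) in LPS against DMSO, and 12200 probes were called there against 12969. The change of Ppia with LPS was 0.062 with 75th percentile scaling, that of Gusb with AdipoAI+LPS -0.037 without scaling, and with each array left out Ppia lay at -0.024 to 0.012 with LPS, and Hsp90ab1 at -0.077 to 0.092 with LPS and -0.14 to 0.031 with AdipoAI. Centring on the 13 other accession-named probes and keeping flagged spots, chosen after seeing the data, changed no call of B2m.

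Calls over all probes moved by over 1.5 times in AdipoAI against DMSO, from 4870 to 2896 without scaling and to 3080, 2638 and 2950 without DMSO replicate 1, DMSO replicate 2 and AdipoAI replicate 1. For the interaction they moved from 1039 to 556 without scaling, 1651 with normexp, 674 without DMSO replicate 2 and 689 without LPS replicate 3. Blocked by scan, the calls were 1041 against 5761 in AdipoAI+LPS against LPS, 6779 against 10898 in AdipoAI+LPS against AdipoAI and 7623 against 15842 in AdipoAI+LPS against DMSO. The cause of these moves was not tested.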
